A study of Mus musculus with 10 samples.

Results

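The vacuolar ATPase (V-ATPase) and lysosomal membrane genes are 39 mouse genes among those with deposited values. Of these, 13 were named singly: Lamp1, Lamp2, Scarb2, Npc1, Npc2, Laptm4a, Laptm5, Mcoln1, Clcn7, Ostm1, Tfeb, Tfe3 and Mitf. The rest are every deposited gene name that starts with Atp6v or Atp6ap. All 39 were chosen by name among 24033 usable gene names, not by a rule on measured values, though earlier results of these data were known. They comprise 13 V1 subunits, 9 V0 subunits, 3 accessory proteins and 1 pseudogene of the V-ATPase, and 13 other genes. Of the 39, 30 passed the filter on low values (at least 0.5 RPKM in at least 3 libraries), as did 13621 genes in all. The other 9 are described by their values alone.

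RNA was measured in microglia, the macrophages of the brain parenchyma, taken from adult C57BL/6 mice aged 3 to 5 months by magnetic beads against CD11b, an integrin chain that other myeloid cells also carry. The 3 knockout (KO) libraries came from mice with both Trem2 alleles disrupted (TREM2-/-, 1 female and 2 male). The 3 heterozygous (Het) libraries came from mice with 1 disrupted allele (TREM2+/-, 2 female and 1 male), and the 4 wild-type (WT) libraries from mice with intact alleles (TREM2+/+, 2 female and 2 male). Trem2 encodes a lipid-binding receptor of microglia. The labels do not say which part of the gene the allele lacks, or whether a library held cells of 1 mouse or of a pool. The p-values therefore measure only how much these libraries vary. Library numbers are those of the labels, and values are listed in the order of those numbers: 6, 9 and 12 for KO, 5, 8 and 11 for Het, and 1, 4, 7 and 10 for WT.

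The V-ATPase is a rotary proton pump: its cytosolic V1 sector hydrolyses ATP and turns a ring in the membrane-bound V0 sector, which moves protons into lysosomes, endosomes and phagosomes. The acid lumen activates the hydrolases that break down what a phagocyte has taken up, while heavily glycosylated proteins such as LAMP1 and LAMP2 line the membrane, and transporters and channels export cholesterol and ions. The transcription factors TFEB, TFE3 and MITF bind E-box-like elements in front of many lysosomal genes and are themselves held in the cytosol by mTORC1 at the lysosomal surface when nutrients are plentiful.

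Trem2 stood at 24.5 ± 3.52 RPKM in KO, 93.9 ± 9.98 RPKM in Het and 191 ± 31.1 RPKM in WT libraries (SD). Recovered depth was 17629209 to 45087621 reads per library, and libraries 9 to 12 (2 KO, 1 Het, 1 WT) held about 2 times the reads of the others. The summed level of 13 microglial markers other than Trem2 was 12385 to 13738 RPKM in KO, 11479 to 13575 RPKM in Het and 11984 to 13872 RPKM in WT libraries. The summed level of 13 neutrophil markers (of 14 in the list, 11 of them averaging at least 1 RPKM) was 374 to 2307 RPKM in KO, 145 to 361 RPKM in Het and 105 to 227 RPKM in WT libraries, the highest being KO library 6. The 12 monocyte markers summed to 93.5 to 244 RPKM in KO, 74.5 to 106 RPKM in Het and 64.4 to 84 RPKM in WT libraries, again highest in KO library 6. The 9 choroid plexus markers summed to 1167 to 1301 RPKM in KO, 1323 to 2092 RPKM in Het and 791 to 1337 RPKM in WT libraries, and the 9 border macrophage markers to 91.8 to 159 RPKM in KO, 101 to 167 RPKM in Het and 81.2 to 134 RPKM in WT libraries. The part of these other cells in the values below was not tested. In such bulk libraries, fewer cells of a type and less RNA per cell cannot be told apart.

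V-ATPase and lysosomal membrane transcripts stood at nearly the same level with 0, 1 or 2 intact copies of Trem2. No member passed the test in KO against WT microglia: limma called 0 of the 30 members tested in either direction at an adjusted p under 0.05, 0 had an unadjusted p under 0.05, and limma-voom on recovered reads called 0. Over all 13621 genes the same test called 0.00734% (Trem2 itself), and 5.13% had an unadjusted p under 0.05. The median log2 fold change of KO over WT was 0.000 over the members and 0.030 over all genes tested, with 15 members above 0 and 15 below. The test was precise for these genes: for 28 of the 30 (93.3%) the 95% interval of the fold change lay wholly within 1.5-fold of WT in either direction, against 56.2% of all genes tested. For all 30 it lay within 2-fold. Tfeb and Atp6v0e2 were the 2 members whose interval passed 1.5-fold. The median SD of log2 values over the 10 libraries was 0.151 for the members and 0.224 for the 12773 genes of the same range of mean RPKM (0.583 to 725). That range holds 12773 of the 13621 genes tested, so neither contrast compared genes matched by level. Many members were abundant: Atp6v1b2, of rank 19 among the members by WT mean, had rank 1831 among the genes tested. The part of level in both contrasts was not tested.

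**Figure D1:**
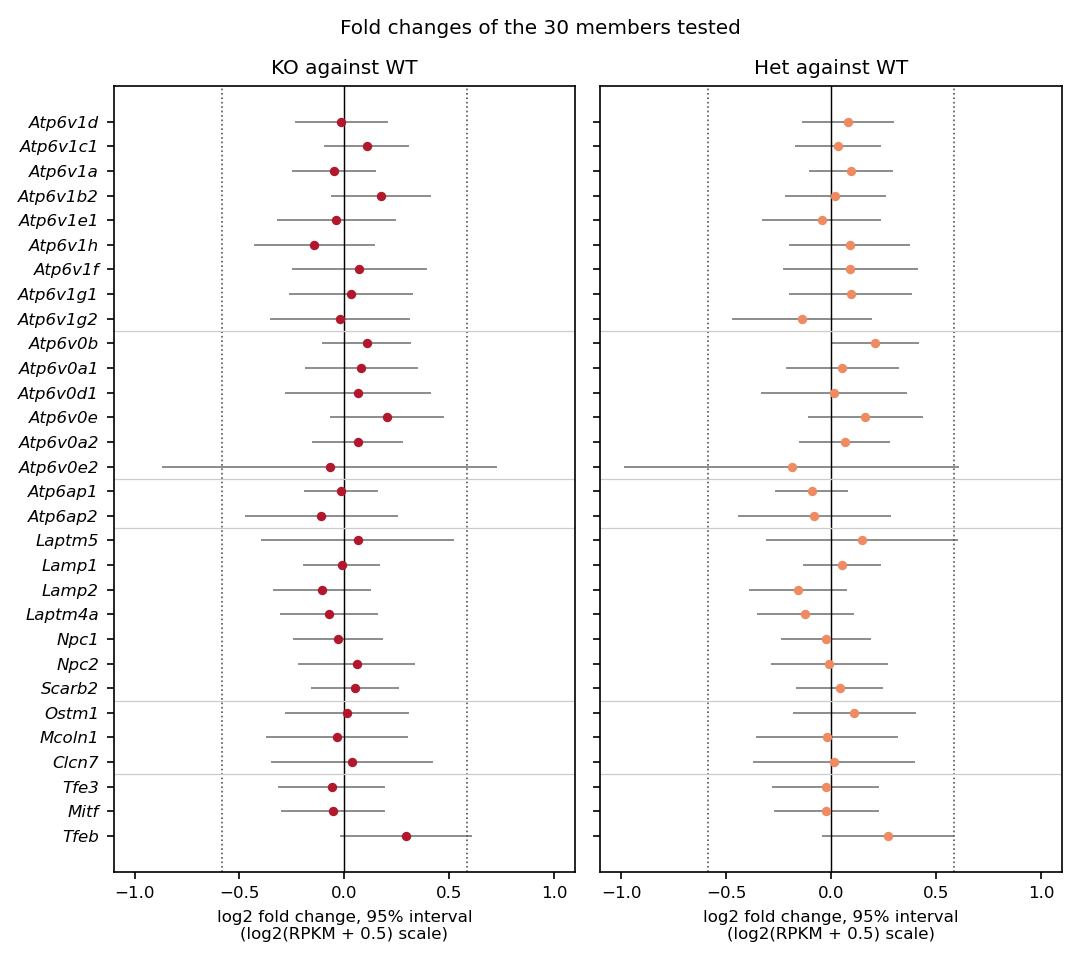
Log2 fold change (dot) with its 95% interval (line) for the 30 members tested, on the log2(RPKM + 0.5) scale, KO against WT on the left and Het against WT on the right, grouped by role from the V1 subunits at the top to the transcription factors at the bottom. Dotted lines mark 1.5-fold; in KO against WT, 28 of 30 intervals lie between them, and only those of Tfeb and Atp6v0e2 reach outside.

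Among the V1 subunits, 9 of 13 were measurable, and all 9 intervals of KO against WT lay within 1.5-fold. Atp6v1a encodes the catalytic subunit A and had 44.2, 43.7 and 46.1 RPKM in KO, 50.6, 52.2 and 44.4 RPKM in Het and 44.8, 48.5, 43.0 and 48.1 RPKM in WT libraries. The KO values lay inside the WT range, and 2 of the 3 Het values lay above every other library. Atp6v1b2, the widely expressed form of subunit B, which completes the ATP-binding sites, had 36.9, 33.4 and 29.7 RPKM in KO, 32.2, 31.8 and 29.96 RPKM in Het and 32.9, 24.9, 28.0 and 35.9 RPKM in WT libraries. The KO and WT ranges overlapped, with the highest library KO 6 and the lowest WT 4. Its log2 fold change of KO over WT was 0.18 (SE 0.11, limma adjusted p = 0.982), a 1.13-fold difference with a 95% interval of 0.956 to 1.33, and 0.10 without WT library 4.

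Subunit H, encoded by Atp6v1h, bridges V1 to V0 and is needed for the assembled pump to work. It had 16.04, 15.4 and 11.5 RPKM in KO, 19.1, 15.2 and 18.8 RPKM in Het and 16.9, 13.4, 17.8 and 16.8 RPKM in WT libraries. The lowest value of the 10 was KO library 12, and the groups overlapped. The log2 fold change was -0.14 for KO over WT (SE 0.13, limma adjusted p = 0.999) and -0.23 for KO over Het (SE 0.14, adjusted p = 0.999). Without KO library 12 the value of KO over Het was -0.13. The stalk and rotor genes Atp6v1c1, Atp6v1d, Atp6v1e1, Atp6v1f, Atp6v1g1 and Atp6v1g2 had KO means of 56.9, 58.4, 17.4, 12.6, 9.97 and 6.34 RPKM, against WT means of 53.8, 58.9, 18.3, 11.8, 9.61 and 6.62 RPKM. Part of the sequence of Atp6v1g1 and Atp6v1f occurs in pseudogenes or other transcripts, in 19.2% and 12.5% of the 50-base stretches of their transcripts, so their levels are less certain than the rest.

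Among the V0 subunits, 6 of 9 were measurable. Atp6v0b encodes the c'' proteolipid of the rotating ring and was the highest of them, with 105.4, 123.5 and 133.5 RPKM in KO, 122.1, 123 and 136.3 RPKM in Het and 105.3, 110.0, 114.4 and 113.1 RPKM in WT libraries. All 3 Het libraries lay above all 4 WT libraries, as did 2 of the 3 KO libraries. KO averaged 120.8 ± 14.2, Het 127.1 ± 7.97 and WT 110.7 ± 4.05 RPKM (SD). The log2 fold change was 0.11 for KO over WT (SE 0.10, limma adjusted p = 0.999) and 0.21 for Het over WT (SE 0.10, adjusted p = 1). The value of KO over WT was 0.04 without KO library 12, 0.22 without KO library 6 and 0.04 with the depth group as a term.

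Atp6v0e, a small subunit of the membrane sector, had 43.4, 47.6 and 53.6 RPKM in KO, 38.7, 50.2 and 50.6 RPKM in Het and 43.4, 36.6, 41.9 and 44.1 RPKM in WT libraries. KO libraries 9 and 12 were above every WT library, and KO library 6 was inside the WT range. Its log2 fold change of KO over WT was 0.20 (SE 0.12, limma adjusted p = 0.982). It was 0.12 without WT library 4, 0.13 without KO library 12 and 0.13 with the depth group as a term. Atp6v0d1, the subunit that couples the V1 stalk to the ring, averaged 45.7 ± 7.5 RPKM in KO, 44.95 ± 6.71 RPKM in Het and 44.2 ± 7.23 RPKM in WT libraries (SD). The a subunits, which hold the proton half-channels and direct the pump to its compartment, averaged 52.4 ± 8.26 RPKM (Atp6v0a1) and 37.6 ± 4.52 RPKM (Atp6v0a2) in KO, against 48.9 ± 4.67 and 35.7 ± 1.05 RPKM in WT libraries.

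**Figure D2:**
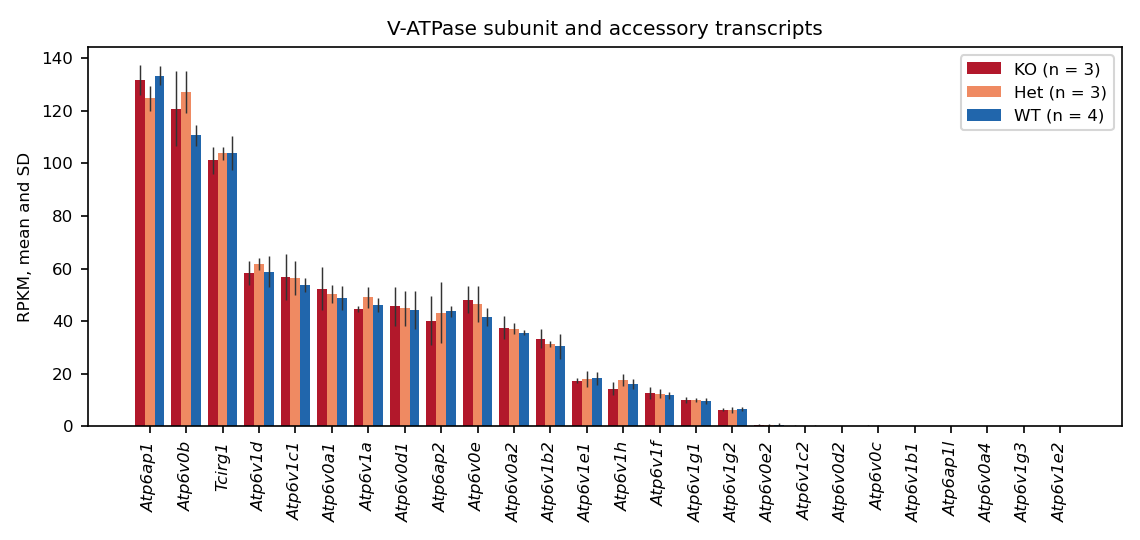
Mean RPKM of V-ATPase subunit and accessory genes and of Tcirg1, in order of level, with bars for KO (n = 3), Het (n = 3) and WT (n = 4) and SD as error lines. Atp6ap1, Atp6v0b and Tcirg1 stand near or above 100 RPKM in all 3 genotypes, and 9 genes at the right are near 0.

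Atp6v0c, which encodes the c proteolipid that makes up most of the ring, was the exception among the core subunits. It had 0, 0.0228 and 0.475 RPKM in KO, 0.047, 0.542 and 0.257 RPKM in Het and 0.193, 0.0848, 0.0471 and 0.27 RPKM in WT libraries, which correspond to between 0 and 22 recovered reads per library. This is far below its ring partner Atp6v0b, which was above 105 RPKM in every library. No fold is given for so few reads. In the GENCODE M21 transcript set, 88% of the 50-base stretches of its coding sequence (366 of 416), and 32.5% of those of the whole transcript, also occur letter for letter in the pseudogenes Atp6v0c-ps1 or Atp6v0c-ps2. In a 354-base run of the coding sequence, every 50-base stretch occurs in one of these pseudogenes. The first 120 bases of that run (GENCODE M21, sense strand of the gene on chromosome 17, transcript bases 289 to 408) are given to show how complete the match is; they occur whole in Atp6v0c-ps2, so no base is set in capitals.
Atp6v0c: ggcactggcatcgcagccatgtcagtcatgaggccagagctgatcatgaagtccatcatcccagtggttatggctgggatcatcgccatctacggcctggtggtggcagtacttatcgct
The labels do not say how reads that match several places were counted, and the part of this sequence in the low value was not tested. Atp6v0c-ps2 itself had 0 to 0.156 RPKM over the 10 libraries.

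The forms of the subunits that vary between tissues were compared by their shares of RPKM. The libraries also held RNA of other cells, and RNA shares do not show which pump is assembled. The a-subunit gene Tcirg1 (the a3 form, known from the osteoclast and the phagolysosome) is not among the 39 by name but made up 53 ± 3.08% of the summed RPKM of the 4 a-subunit genes in KO, 54.3 ± 1.92% in Het and 55.1 ± 1.2% in WT libraries (SD). Atp6v0a1 made up 27.3%, 26.3% and 25.9% and Atp6v0a2 19.7%, 19.4% and 19% in KO, Het and WT libraries. The kidney form Atp6v0a4 stayed at or below 0.0498% in every library. Atp6v1b2 was 99.6% to 99.9% of the B-subunit total over the kidney and inner ear form Atp6v1b1. Atp6v1c1 was at least 99.3% of the C subunits, Atp6v0d1 at least 99.2% of the d subunits, Atp6v0e at least 96.7% of the e subunits and Atp6v1e1, over the testis form Atp6v1e2, at least 99.8% of the E subunits. The G subunits were shared: Atp6v1g1 made up 60.9 ± 4.91% in KO, 61.8 ± 4.28% in Het and 59.2 ± 1.88% in WT libraries (SD), and Atp6v1g2, best known from neurons, nearly all of the rest. The split of the G subunits is as uncertain as the level of Atp6v1g1, part of whose sequence occurs in pseudogenes.

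The 9 members under the filter were Atp6ap1l, Atp6v0a4, Atp6v0c, Atp6v0c-ps2, Atp6v0d2, Atp6v1b1, Atp6v1c2, Atp6v1e2 and Atp6v1g3. Their highest count in any library was 29 recovered reads, for Atp6v1c2 in WT library 10. Atp6v0d2, the d form induced in osteoclasts, had 0.0414, 0.136 and 0.278 RPKM in KO, 0.324, 0.0906 and 0.086 RPKM in Het and 0.248, 0, 0.26 and 0.23 RPKM in WT libraries. These are 0 to 28 reads per library, with overlapping groups.

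The accessory subunits link the pump to its assembly and to cell signalling. Atp6ap1 (Ac45) guides V0 assembly and had 133.5, 136.3 and 125.5 RPKM in KO, 129.9, 124 and 120.5 RPKM in Het and 133.4, 138.2, 131.8 and 129.7 RPKM in WT libraries. It was among the least variable members, with a coefficient of variation of 4.28% over the 10 libraries and a log2 fold change of KO over WT of -0.02 (SE 0.08, limma adjusted p = 0.999). Atp6ap2, the (pro)renin receptor, varied more, with 50.1, 38.8 and 31.6 RPKM in KO, 56.9, 37.0 and 36.1 RPKM in Het and 45.4, 45.5, 43.2 and 40.8 RPKM in WT libraries. In KO and in Het the highest library was one of the less deeply sequenced and female ones (KO 6 and Het 5).

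The summed level of the 17 V-ATPase members tested was 692 to 746 RPKM over the 10 libraries, lowest in WT library 4 and highest in Het library 5. By library, KO 12 was the highest of the 10 for 8 members (Atp6v0a1, Atp6v0a2, Atp6v0e, Atp6v1f, Laptm5, Mcoln1, Tfe3 and Tfeb), and WT 4 the lowest for 8 (Atp6v0a1, Atp6v0d1, Atp6v0e, Atp6v1b2, Atp6v1c1, Clcn7, Npc2 and Scarb2).

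**Figure D3:**
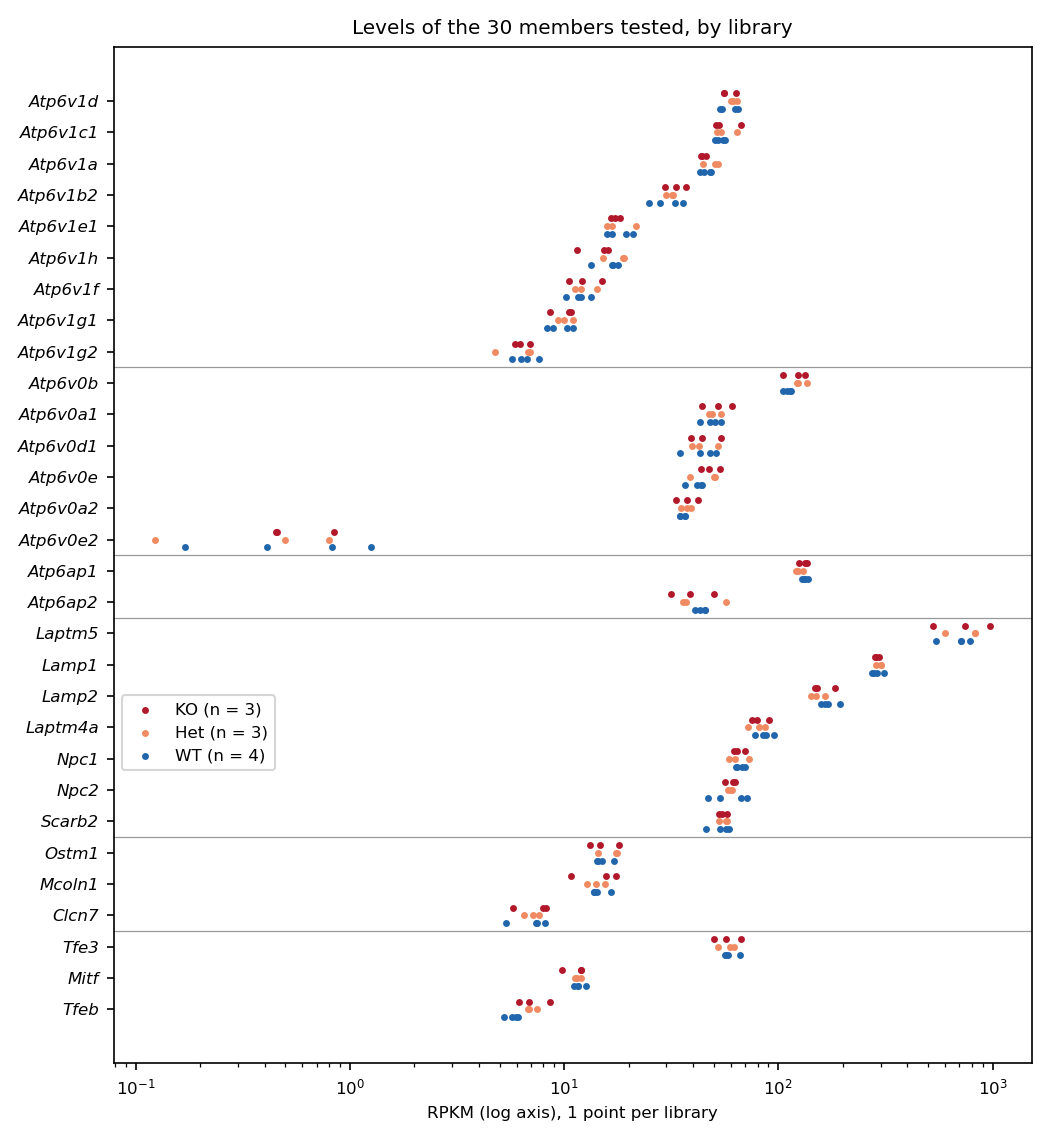
RPKM of the 30 members tested on a log axis, 1 point per library, with KO above Het above WT in each gene's row and genes grouped by role. The points of the 3 genotypes lie over each other for nearly every gene; Laptm5 is the highest, between 527 and 976 RPKM, and Atp6v0e2 the lowest and most scattered.

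The membrane proteins included the 3 most abundant members. Laptm5, a lysosomal membrane protein of blood cells that sends receptors to degradation, had 527.1, 741.9 and 975.8 RPKM in KO, 598.1, 824.8 and 828.6 RPKM in Het and 716.1, 541.8, 714.4 and 783.4 RPKM in WT libraries. The 3 KO libraries held both the lowest and the highest value of all 10. Its log2 fold change of KO over WT was 0.06 (SE 0.21, limma adjusted p = 0.999). As a difference of mean log2 levels without a sex term, it was 0.12 within the deeper libraries (2 KO, 1 WT). In the others (1 KO, 3 WT) it was -0.31, and each value rests on 1 library on one side. The deeper KO libraries were male and the deeper WT library female, so sex and genotype cannot be told apart there. With sex and the depth group as terms, the log2 fold change was -0.11.

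Lamp1, the main glycoprotein of the lysosomal membrane, had 286.6, 295.8 and 282.2 RPKM in KO, 301.4, 301.3 and 287.1 RPKM in Het and 272.6, 289.7, 312.6 and 280.1 RPKM in WT libraries. All KO values lay inside the WT range, the coefficient of variation over the 10 libraries was 4.09%, and the log2 fold change of KO over WT was -0.01 (SE 0.08, adjusted p = 0.999). Lamp2, which is also the receptor of chaperone-mediated autophagy in one of its splice forms, had 152.3, 184 and 148.9 RPKM in KO, 141.5, 149.5 and 165.6 RPKM in Het and 165.3, 193.6, 170.3 and 159 RPKM in WT libraries. Of the 6 KO and Het libraries, 4 lay below every WT library, and the groups overlapped. Its log2 fold change was -0.11 for KO over WT (SE 0.11, limma adjusted p = 0.999) and -0.16 for Het over WT (SE 0.11, adjusted p = 1). The value of KO over WT was 0.03 with sample quality weights, -0.04 without KO library 12, -0.05 without WT library 4 and -0.19 without KO library 9.

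Cholesterol leaves the lysosome through NPC2, a soluble carrier, and NPC1, its membrane partner. Npc1 averaged 65.4 ± 4.11 RPKM in KO, 64.9 ± 7.43 RPKM in Het and 66.3 ± 3.16 RPKM in WT libraries, and Npc2 60.3 ± 3.41, 59.6 ± 1.42 and 59.7 ± 11.5 RPKM in KO, Het and WT libraries (SD). Npc2 was more scattered among WT libraries, with 46.8 RPKM in library 4 and 71.5 RPKM in library 10. Scarb2 (LIMP-2), which carries glucocerebrosidase to the lysosome, averaged 55.0 ± 2.60 RPKM in KO and 53.9 ± 5.67 RPKM in WT libraries, and Laptm4a 81.8 ± 7.77 and 86.5 ± 7.09 RPKM in KO and WT libraries (SD). Of these 4 genes, all had a 95% interval of KO against WT within 1.5-fold.

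The channel genes were lower, with overlapping groups. Mcoln1 encodes TRPML1, the calcium release channel whose opening activates TFEB through calcineurin. It had 10.8, 15.7 and 17.4 RPKM in KO, 12.8, 14.1 and 15.5 RPKM in Het and 16.5, 13.8, 14.2 and 13.7 RPKM in WT libraries. As for Laptm5, KO library 6 was the lowest of the 10 and KO library 12 the highest. KO averaged 14.7 ± 3.45 and WT 14.6 ± 1.30 RPKM (SD), with a log2 fold change of -0.04 (SE 0.15, limma adjusted p = 0.999). Clcn7, the chloride-proton exchanger of the lysosome, averaged 7.32 ± 1.37 RPKM in KO and 7.12 ± 1.21 RPKM in WT libraries, and its obligate partner Ostm1 15.4 ± 2.47 RPKM in KO and 15.2 ± 1.30 RPKM in WT libraries (SD).

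Of the transcription factors, Tfeb had the smallest unadjusted p of all 30 members in KO against WT. It had 6.89, 6.13 and 8.63 RPKM in KO, 6.87, 7.44 and 6.78 RPKM in Het and 6.08, 5.71, 5.23 and 5.98 RPKM in WT libraries. Every KO and every Het library lay above every WT library, most narrowly KO 9 above WT 1. The averages were 7.22 ± 1.28 RPKM in KO, 7.03 ± 0.36 RPKM in Het and 5.75 ± 0.378 RPKM in WT libraries (SD). The log2 fold change was 0.29 for KO over WT (SE 0.14, limma adjusted p = 0.977), which is 1.23-fold with a 95% interval of 0.987 to 1.52, and 0.27 for Het over WT (SE 0.14, adjusted p = 1). It did not pass the test. Leaving out 1 library at a time moved the value of KO over WT between 0.17 (without KO 12) and 0.40 (without KO 9), and with sample quality weights it was 0.18. As a difference of mean log2 levels without a sex term, it was 0.27 within the deeper libraries (2 KO, 1 WT). In the others (1 KO, 3 WT) it was 0.26, so each of these values rests on 1 library on one side. The deeper KO libraries were male and the deeper WT library female, so sex and genotype cannot be told apart there.

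Tfeb was the single member of 30 whose KO and WT libraries did not overlap, as was the case for 4.59% of all genes tested; 2.99% had every KO library above every WT library. Tfeb was also the single member with both KO and Het libraries entirely above WT, which held for 57 of all genes tested (0.418%). Tfeb lies on chromosome 17 (GRCm38, 47737030 to 47792419, plus strand), 0.554 Mb from Trem2, so a difference carried by the chromosome segment around the disrupted allele and an effect of losing Trem2 cannot be told apart. Tfe3 and Mitf lie on chromosomes X and 6.

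Tfe3 was the most abundant of these factors, with 49.9, 56.8 and 67.0 RPKM in KO, 59.6, 62.0 and 52.5 RPKM in Het and 66.4, 56.8, 56.6 and 58.6 RPKM in WT libraries. KO libraries 6 and 12 were the lowest and the highest of the 10, and its log2 fold change of KO over WT was -0.06 (SE 0.12, limma adjusted p = 0.999). Mitf had 12.0, 12.0 and 9.82 RPKM in KO, 11.3, 11.5 and 12.1 RPKM in Het and 11.6, 11.1, 12.6 and 11.6 RPKM in WT libraries. The groups overlapped, with a log2 fold change of -0.05 (SE 0.11, adjusted p = 0.999). Tfec, the fourth gene of the family, is known from macrophages and osteoclasts and is not among the 39. It had 0.844, 1.19 and 1.3 RPKM in KO, 0.882, 1.084 and 0.726 RPKM in Het and 0.574, 0.302, 0.731 and 0.661 RPKM in WT libraries. All KO libraries lay above all WT libraries, as for 2.99% of all genes tested, and the log2 fold change was 0.58 (SE 0.23, limma adjusted p = 0.964). Of the summed RPKM of the 4 factors, Tfeb made up 9.3 ± 1.08% in KO, 9.08 ± 0.339% in Het and 7.41 ± 0.41% in WT libraries, and Tfe3 74.5 ± 2.82%, 74.8 ± 1.66% and 76.7 ± 1.33% in KO, Het and WT libraries (SD).

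**Figure D4:**
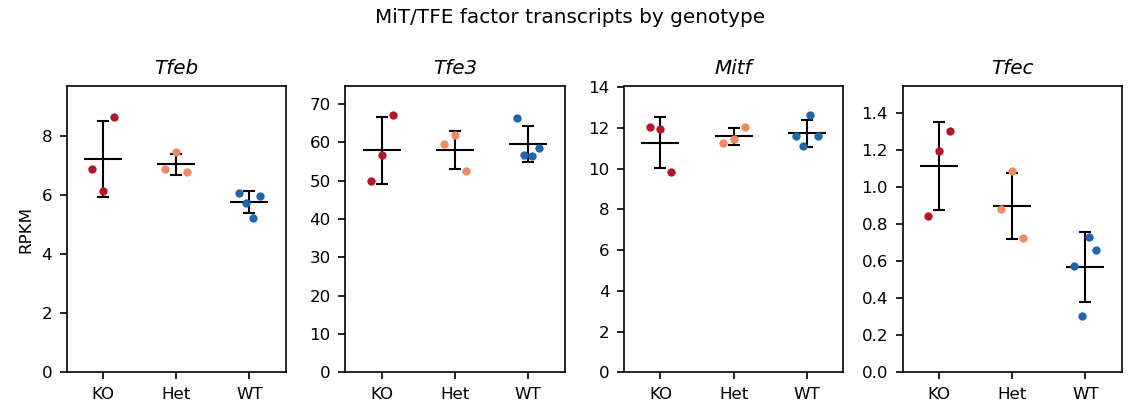
RPKM of Tfeb, Tfe3, Mitf and Tfec in each library (points), with the mean (long line) and SD (error line) of KO (n = 3), Het (n = 3) and WT (n = 4); each panel has its own linear axis from 0. All KO and Het points of Tfeb lie above all WT points, while those of Tfe3 and Mitf overlap.

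The promoters of some members carry the E-box core that these factors bind. In RefSeq windows of 300 bases (250 before to 50 after the start, GRCm38.p6), found for 30 of the 39 members, the core CACGTG was present in 7 (23.3%), against 8.09% of the 27025 genes with a window. The longer form TCACGTGA, which contains the core, was present in 5 (16.7% against 1.12%). The 27025 genes were not limited to the 13621 tested or matched by base composition, and the part of either in these differences was not tested. The 9 members without a window, Npc1 and Atp6v1h among them, could not be searched. Each motif reads the same on both strands. The 5 stretches with the longer form are shown on the strand of the gene, and capitals mark each core and its longer form. Among the members with a window, they are those in which a change of TFEB, TFE3 or MITF would be looked for first. They are GRCm38.p6 chr8:105566035-105566108 (minus strand), chr17:26676358-26676425 (plus), chr16:44139344-44139431 (minus), chr17:25133357-25133420 (plus) and chr8:3500433-3500520 (plus), in the order listed.
Atp6v0d1: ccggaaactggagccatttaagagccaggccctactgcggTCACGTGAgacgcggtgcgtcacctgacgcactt
Atp6v0e: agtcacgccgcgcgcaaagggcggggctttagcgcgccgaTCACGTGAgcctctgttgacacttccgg
Atp6v1a: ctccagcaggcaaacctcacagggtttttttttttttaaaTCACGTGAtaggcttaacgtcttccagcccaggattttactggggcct
Clcn7: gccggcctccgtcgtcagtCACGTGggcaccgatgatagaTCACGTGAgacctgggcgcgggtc
Mcoln1: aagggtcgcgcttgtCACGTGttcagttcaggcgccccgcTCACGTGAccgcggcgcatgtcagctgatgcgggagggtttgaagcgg
In KO against WT, the log2 fold changes of these 5 genes were 0.07 for Atp6v0d1 (SE 0.16), 0.20 for Atp6v0e (SE 0.12), -0.05 for Atp6v1a (SE 0.09), 0.03 for Clcn7 (SE 0.18) and -0.04 for Mcoln1 (SE 0.15), none of which passed the test. A match of letters is not a measured binding site. The other 2 members with the core alone were Atp6v0b and Lamp1.

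In Het against WT microglia, limma called 0 of 30 members (0% of all genes), 1 had an unadjusted p under 0.05 (Atp6v0b, 2.75% of all genes), and limma-voom called 0 members. Trem2 itself was not called by limma, at 93.9 RPKM in Het and 191 RPKM in WT libraries (log2 fold change -1.02, limma adjusted p = 0.238). Even a loss of that size did not pass the test. The median log2 fold change was 0.026 over the members and 0.001 over all genes tested. The Het and WT libraries did not overlap for 2 members, Atp6v0b and Tfeb, both higher in Het; of all genes tested, 4.53% did not overlap and 2.23% were higher in that way. In the same comparison, 9 of 9 choroid plexus markers (median log2 fold change 0.469) and 9 of 9 border macrophage markers (median 0.317) had fold changes above 0. Of all 13621 genes tested, 6847 did. Of these markers limma called 0, as of all genes. An unadjusted limma p under 0.05 was found for 4 choroid plexus markers and 1 border macrophage marker, against 2.75% of all genes. The part of these markers' cells in the values of the members was not tested. The 95% interval lay within 1.5-fold for 28 of the 30 members, against 58.2% of all genes. Both comparisons share the 4 WT libraries.

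In KO against Het microglia, limma called 0 of 30 members (0.00734% of all genes, Trem2), 0 had an unadjusted p under 0.05 (3.35% of all genes), limma-voom called 0 members, and 0 members were without overlap (7.42% of all genes). The median log2 fold change was 0.004 over the members and 0.028 over all genes tested. The 3 members with the smallest p were Atp6v1h, given above, Atp6v1a at -0.14 (SE 0.10, limma adjusted p = 0.999) and Atp6v1b2 at 0.16 (SE 0.12, adjusted p = 0.999). For Tfeb the log2 fold change of KO over Het was 0.02, with a 95% interval of -0.32 to 0.37.

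Between the sexes, with genotype in the model, limma called 0 of 30 members (0.044% of all genes), 2 had an unadjusted p under 0.05 (5.34% of all genes), and limma-voom called 0 members. This model takes the sex difference to be the same in every genotype. Some members were ordered in opposite ways by sex in KO and WT, while others, such as Atp6v1c1 below, were not. Npc2 had 56.5 RPKM in the KO female and averaged 62.2 RPKM in KO males, but 69.3 and 50.2 RPKM in WT females and males. Atp6v0d1 had 39.3 RPKM in the KO female and 48.9 RPKM in KO males, but 49.6 and 38.8 RPKM in WT females and males. With 1 KO female (library 6) and 1 Het male (library 8), sex differences by genotype cannot be told from differences between single libraries. Atp6v1c1, the subunit whose release disconnects V1 from V0, had 52.7, 51.1, 51.6, 50.9 and 52.5 RPKM in males (KO 9, KO 12, Het 8, WT 4 and WT 7) and 67.0, 63.8, 54.1, 56.5 and 55.1 RPKM in females (KO 6, Het 5, Het 11, WT 1 and WT 10). Every male library lay below every female one, as for 0.565% of all genes tested, and the log2 fold change of male over female was -0.20 (SE 0.08, limma adjusted p = 0.919). Atp6v1b2 had a log2 fold change of male over female of -0.21 (SE 0.09, adjusted p = 0.919), with male libraries at 24.9 to 33.4 RPKM and female ones at 29.96 to 36.9 RPKM, which overlap. Atp6v1h was at -0.21 (SE 0.11, adjusted p = 0.922).

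Genes that work with the members were described in the same way. Of 18 V-ATPase genes and partners outside the name rule, 16 were tested in KO against WT, and limma called 0 (0.00734% of all genes). Of the 16, 0 had an unadjusted p under 0.05 (5.13% of all genes), and the median log2 fold change was 0.051, with a range of -0.13 to 0.42. The 95% interval lay within 1.5-fold for 12 of the 16 (75%) and within 2-fold for 14 (87.5%), against 56.2% and 89.1% of all genes tested. The 3 most abundant were Rnasek, a membrane subunit of the pump, at 128.1 ± 64.0 RPKM in KO and 123.8 ± 15.6 RPKM in WT libraries, Tcirg1 at 101.2 ± 5.06 and 103.9 ± 6.39 RPKM in KO and WT, and Aldoa, a glycolytic enzyme that binds the pump, at 49.6 ± 4.73 and 47.9 ± 5.59 RPKM in KO and WT (SD). Ncoa7, a binding partner of V1, had 1.98, 1.94 and 1.96 RPKM in KO, 1.91, 1.96 and 1.76 RPKM in Het and 1.61, 0.996, 1.43 and 1.86 RPKM in WT libraries. Every KO library lay above every WT one, as for 2.99% of all genes tested. The log2 fold change of Ncoa7 for KO over WT was 0.36 (SE 0.19, limma adjusted p = 0.977). The next smallest p in this list belonged to Ccdc115, an assembly factor of the pump, at 15.57 ± 1.454 RPKM in KO and 13.87 ± 1.062 RPKM in WT libraries (SD), with a log2 fold change of 0.17 (SE 0.15, adjusted p = 0.999).

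Of 26 genes of TFEB control and lysosomal nutrient sensing, 24 were tested in KO against WT, and limma called 0 (0.00734% of all genes). Of the 24, 4 had an unadjusted limma p under 0.05 (Rragd, Lamtor5, Ppp3cb and Tfec). That is a larger share than the 5.13% of all genes tested. The median log2 fold change of the list was -0.037. Rragd encodes RagD, the GTPase that brings TFEB and TFE3 to mTORC1, and had 2.53, 3.31 and 2.9 RPKM in KO, 3.13, 5.28 and 3.62 RPKM in Het and 4.9, 4.17, 4.29 and 4.04 RPKM in WT libraries. Every KO library lay below every WT library, as for 1.6% of all genes tested, while Het libraries spanned both. Its log2 fold change of KO over WT was -0.54 (SE 0.17, limma adjusted p = 0.937). Lamtor5, a subunit of the Ragulator scaffold of the Rag GTPases, had 12.8, 13.3 and 12.7 RPKM in KO, 14.6, 11.4 and 14.8 RPKM in Het and 11.0, 9.28, 11.3 and 8.29 RPKM in WT libraries. KO and Het libraries all lay above the WT libraries, as for 0.418% of all genes tested, and the log2 fold change of KO over WT was 0.38 (SE 0.14, adjusted p = 0.942). The 3 most abundant genes of this list were the calcineurin subunits Ppp3r1, at 48.4 ± 4.89 RPKM in KO and 47.0 ± 8.15 RPKM in WT libraries, and Ppp3ca, at 41.6 ± 5.16 and 42.4 ± 1.41 RPKM in KO and WT, and the Rag GTPase gene Rragc, at 37.76 ± 1.996 and 42.0 ± 3.51 RPKM in KO and WT (SD).

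Of 61 other lysosomal membrane proteins, 52 were tested in KO against WT, and limma called 0 (0.00734% of all genes). Of the 52, 0 had an unadjusted p under 0.05 (5.13% of all genes), and the median log2 fold change was 0.001. The most abundant were Cd68, the macrophage sialomucin, at 570.7 ± 75.6 RPKM in KO and 587.8 ± 24.7 RPKM in WT libraries, Cd164 at 513.6 ± 45.8 and 528.7 ± 71.8 RPKM in KO and WT, and the nucleoside transporter Slc29a3 at 251.5 ± 12.4 and 281.1 ± 69.1 RPKM in KO and WT (SD). For 47 of the 52, or 90.4%, the 95% interval lay within 1.5-fold, against 56.2% of all genes tested. The smallest p belonged to Slc11a2, an iron transporter, at 12.5 ± 0.95 RPKM in KO and 15.3 ± 2.31 RPKM in WT libraries (SD), with a log2 fold change of -0.27 (SE 0.14, limma adjusted p = 0.977). The next belonged to Sppl2b, an intramembrane protease, at 2.87 ± 1.01 RPKM in KO and 2.01 ± 0.149 RPKM in WT libraries (SD), with a log2 fold change of 0.36 (SE 0.21, adjusted p = 0.977).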

How the data were processed

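RNA-seq libraries of 10 microglia samples were analysed from values of RPKM (reads scaled to gene length and library total) that the authors computed and deposited, 1 linear value per gene and library. The submitters' processing notes name STAR, HTSeq, edgeR and limma with the mm10 build; their versions and the annotation used are not stated there. RPKM divides by the library total, so values are shares of the RNA, and amplified total RNA was used, per the labels' protocols.

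The files list 24060 names; 27 had become dates and were not used. For all 20008 genes above 0, the 10 values were whole multiples of 1 read, within 0.002 reads or a relative 3e-08, so reads were recovered (17629209 to 45087621 per library). Values were transformed to log2(RPKM + 0.5) from the deposited values, which understates changes of low genes, and genes reaching 0.5 RPKM in 3 or more libraries were tested with limma 3.58.1 in R 4.3.3 (empirical Bayes with a mean-variance trend, genotype and sex as terms, all 10 libraries, two-sided, Benjamini-Hochberg over 13621 genes, called at an adjusted p under 0.05). Shares, ranges and sequence matches were computed with Python 3.11.15, pandas 2.3.3 and numpy 2.4.6. The test was tried on simulated data first. Alternatives were pseudocounts of 0.1 and 1, no filter or 1 RPKM, no sex term, median-ratio scaling, sample quality weights, limma-voom on recovered reads, and leaving out each library. A term for the depth group was chosen after seeing the data.

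Members given with full statistics are the 3 with the smallest p in each comparison, the 5 with the highest mean RPKM, and Tfeb, Tfe3 and Mitf; from other lists, the 3 highest and the 2 with the smallest p in KO against WT. Some further genes were named for their role after their values were seen. The members and lists were chosen with earlier results of these data known. Annotation is GENCODE M21 (GRCm38), and promoters are from RefSeq (GRCm38.p6).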

Additional observations from a re-analysis of the deposited data

Results flagged for a closer look

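Among the WT libraries, Mcoln1 was 16.5 RPKM in library 1 and 13.8, 14.2 and 13.7 RPKM in libraries 4, 7 and 10. The gap between library 1 and the next library was 0.842 of the whole WT range, above the critical value of Dixon's test for 4 samples (0.829). Chance alone gives such a gap in about 1 in 20 groups, and the WT values of all 30 members tested were examined in this way.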

How the results depend on the processing

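No member was called in any of the 4 comparisons under the 19 alternatives; the lowest adjusted p of a member was 0.644. Of 358 values of single members under alternatives, 342 kept their direction and 16 did not. These values cover only 19 results, of members named for a small p, a high level or their role. They do not give the share for all 30 members. The number of genes called over the whole table in KO against WT was 1, and became 2 with sample quality weights (Trem2, Treml2), 2 with limma-voom (Trem2, Treml2) and 2 with the depth group as a term (Trem2, Camp); leaving out 1 library gave 1 to 3, with 3 without KO library 6 (Trem2, Treml2, Mir5104). In Het against WT it was 0, and 1 (Trem2) with limma-voom. The cause was not tested.

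Some values changed sign in KO against WT, and not only those near 0: Lamp2 was at -0.107 in the main fit. Members not listed here changed sign too, such as Atp6ap2 (-0.270 to 0.035 over the alternatives). Others, such as Atp6v1h (-0.236 to -0.033), did not. With sample quality weights, the log2 fold change was 0.024 for Atp6ap1, 0.029 for Lamp2 and -0.022 for Laptm5. With the depth group as a term, it was 0.005 for Atp6ap1, 0.002 for Lamp1 and -0.111 for Laptm5. Leaving out 1 library gave -0.041 to 0.018 for Atp6ap1, -0.041 to 0.025 for Lamp1, -0.126 to 0.352 for Laptm5, -0.158 to 0.065 for Tfe3 and -0.111 to 0.032 for Mitf. The median of the members in KO against Het was 0.004, and -0.038 to 0.062 when 1 library was left out, highest without KO library 6. No paired analysis was made, because the labels number each library on its own and name no pairs or sets. Whether libraries were prepared in sets is not known from these numbers. With 3 or 4 libraries a group, small differences of single genes remain out of reach, and counting error limits the 9 members of at most 29 reads and Atp6v0e2, tested on 4 to 62 reads per library.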

Other observations

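Rnasek was the partner gene with the widest spread among KO libraries, at 66.2, 124.2 and 194 RPKM, against 111.7, 158.8 and 154.2 RPKM in Het and 125.7, 101.3, 132.9 and 135.4 RPKM in WT libraries. KO libraries 6 and 12 were the lowest and the highest of the 10, as they were for Laptm5, Mcoln1 and Tfe3. Stard3, a cholesterol-binding protein of late endosomes, was ordered in the same way, with 14.8, 24.6 and 29.4 RPKM in KO, 17.6, 18.5 and 24.2 RPKM in Het and 19.3, 15.7, 17.3 and 21.7 RPKM in WT libraries. KO library 6 was also the library with the highest neutrophil and monocyte marker sums, and the part of that in these values was not tested. Both genes were named after their values were seen.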
